A study of Homo sapiens with 15 samples.

Results

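The genes described here are 31 genes of cholesterol and fatty acid synthesis, picked from the 19684 genes measured as a list of gene names with no limit on their values, though with earlier results of these data known. They comprise 7 enzymes of the mevalonate steps, 11 enzymes of the squalene and sterol steps, 4 genes of regulation and export, 4 genes of fatty acid synthesis, and 5 elongases and desaturases. All 31 were found in the expression tables. RNA was sequenced from undifferentiated BC1-GFP hiPSCs, from the NR layers of D70-ROs and D150-ROs, and from P1 and P5 iMGCs, with 3 libraries in each of the 5 groups.

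Cells make cholesterol from acetyl-CoA. The mevalonate steps build isoprenoid units, the squalene and sterol steps join and close them into sterol rings and trim the rings to cholesterol, and the transcription factor SREBF2 raises the genes of both when sterols run low, held back by the protein INSIG1. Fatty acids start from the same acetyl-CoA through ACLY, ACACA and FASN, are desaturated by SCD, FADS1 and FADS2, and are lengthened by the ELOVL enzymes. In the retina, photoreceptor outer segments are rich in very long polyunsaturated fatty acids, for which ELOVL2 and ELOVL4 are needed, and glia are a source of sterols that are passed to neurons.

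All libraries came from 1 human iPSC line with a GFP reporter and a genotype labelled wild type, so the spread between replicates does not include differences between donors. The hiPSCs were kept in mTeSR1. The ROs matured in a retinal differentiation medium with fetal bovine serum and taurine, with N2 in place of B27 in the late stage, and the NR layers of several ROs were pooled for each library. The iMGCs are the cells that grew out of D150-RO NR layers in DMEM with fetal bovine serum, collected on day 5 of passage 1 or of passage 5. The medium changed with every group except between P1 and P5 iMGCs, so medium and cell state cannot be told apart here. The sources differ on whether the hiPSC and RO libraries came from 2 or 3 experiments and name 1 or 2 sequencing companies. A correction between batches of data is mentioned without saying which libraries formed a batch or whether the deposited values carry it, so batch and group cannot be told apart either, and the p-values measure only the spread between these samples, which may be technical. In bulk RNA fewer cells of a type cannot be told apart from less RNA per cell.

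Library totals lay between 11349600 and 20398755 expected counts, with D70-RO replicate 2 the lowest. The labelled states could be checked against markers. The pluripotency gene POU5F1 was at 2026.7 FPKM on average in hiPSCs and at most 4.2 FPKM on average elsewhere, and the 8 photoreceptor markers summed to between 1034.4 and 1119 FPKM in D150-ROs and to at most 0.57 FPKM in any iMGC library. Of 6 Mueller glia markers, VIM and CRYAB were higher in P1 iMGCs than in D150-ROs, GLUL, SLC1A3 and SOX9 were lower, and RLBP1, which encodes CRALBP, had 0 counts in the P1 iMGCs against 2895 in the D150-ROs. The 7 mesenchymal and matrix genes together reached 12217.1 to 12850.3 FPKM in P1 iMGCs against 25.4 to 26.6 FPKM in D150-ROs, and FN1 alone took 5.61% to 5.86% of all counts there. FPKM is relative to all mapped reads, so such genes lower the FPKM of the others. The edgeR tests scale the libraries by TMM instead, and for the P1 iMGC comparison with D150-ROs the median gene moved by −0.05 on the log2 scale with TMM and by −0.59 with FPKM.

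The 31 genes together fell from 2932.6 to 3269 FPKM per library in hiPSCs to 890.6 to 924.2 FPKM in D70-ROs and 701.5 to 751.6 FPKM in D150-ROs, and stood at 1081 to 1122.4 FPKM in P1 iMGCs and 1019.9 to 1043.2 FPKM in P5 iMGCs. No library of one of these groups overlapped with those of another. A gene is called here when its Benjamini-Hochberg adjusted p is under 0.05 in edgeR's quasi-likelihood test over all genes tested and its fold change is at least 2.

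From hiPSCs to D70-ROs, 20 of the 31 genes were called lower and 2 were called higher, where 21.1% and 22.5% of the 12954 genes tested were called in those directions. The 2 that rose were the elongases ELOVL2 and ELOVL4. The median log2 fold change of the 31 was −1.40, against 0.02 for all genes. From D70-ROs to D150-ROs, 7 were called lower and 2 higher, with backgrounds of 16.7% and 16.6%, and the median was −0.67 against −0.01. The 2 that rose at this step were ABCA1 and ELOVL4. This second step is the less certain, since limma on log2(FPKM + 1) called 3 lower (PMVK, FDFT1 and SCD) and 3 higher. Over the whole path from hiPSCs to D150-ROs, 24 were called lower and 3 higher, with backgrounds of 29.0% and 29.8%, and the median was −1.76 against −0.02.

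The direction turned between D150-ROs and P1 iMGCs. Here 17 of the 31 genes were called higher and 3 lower, where 20.0% and 24.1% of the 12896 genes tested were called in those directions, and the median log2 fold change was 1.02 against −0.05 for all genes. The 3 that fell were SREBF1, ELOVL4 and ELOVL2. On the FPKM scale, limma called 8 higher (ACAT2, IDI1, FDFT1, SQLE, MSMO1, DHCR7, INSIG1 and SCD) and the same 3 lower. Of the 24 genes called lower between hiPSCs and D150-ROs, 15 were called higher between D150-ROs and P1 iMGCs; both comparisons use the same D150-RO libraries, so the pair of calls is not independent. Between P1 and P5 iMGCs none of the 30 genes tested was called in either direction, where 1.94% of the 11366 genes tested were called higher and 0.977% lower.

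The same counts can be read without the 2-fold limit. By adjusted p alone, 30 of the 31 genes differed between D70-ROs and hiPSCs (75.2% of all genes tested), 26 between the RO stages (73.9%), 31 between D150-ROs and hiPSCs (87.2%), 28 between P1 iMGCs and D150-ROs (86.9%) and 11 of 30 between the passages (30.7%). In FPKM, the libraries of the 2 groups did not overlap for 30 of the genes at the first RO step, 26 of them lower (75.5% of all genes tested did not overlap in either direction), and for 25 at the second, 15 of them lower (77.2%). Over the whole path to D150-ROs 28 did not overlap, 25 of them lower (87.4%), and between D150-ROs and P1 iMGCs 26 did not, 19 of them higher and 7 lower (87.9%). Between the passages 15 of 30 did not overlap, 12 of them lower in P5 (39.5%). The shares pool both directions. Of all genes tested, 4564 of 12954 were lower without overlap at the first RO step and 3902 of 12855 at the second. Over the whole path to D150-ROs 4920 of 13344 were lower. Between D150-ROs and P1 iMGCs 2972 of 12896 were higher and 8361 lower, and between the passages 2896 of 11366 were lower. The pooled shares are high for all genes, so the counts that follow use the 2-fold limit.

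**Figure D1:**
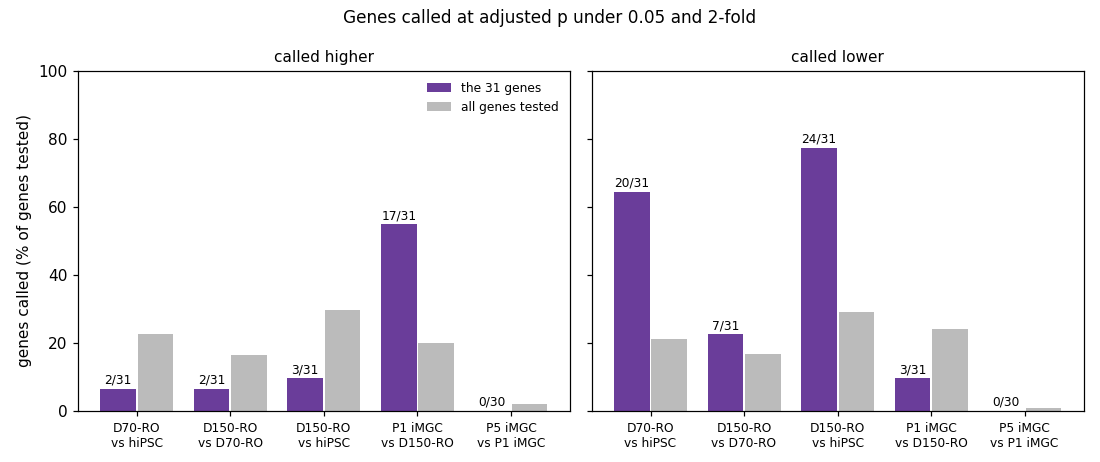
Bars show the percentage of genes called at adjusted p under 0.05 and at least 2-fold, higher on the left and lower on the right, for the 31 genes (purple, with the count above the bar) and for all genes tested (grey), in 5 comparisons. The purple bars stand above the grey ones among genes called lower in both RO comparisons with hiPSCs and among genes called higher in P1 iMGCs. They also do so, by less, among genes called lower between the RO stages (7 of 31, beside 16.7% of all genes tested).

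**Figure D2:**
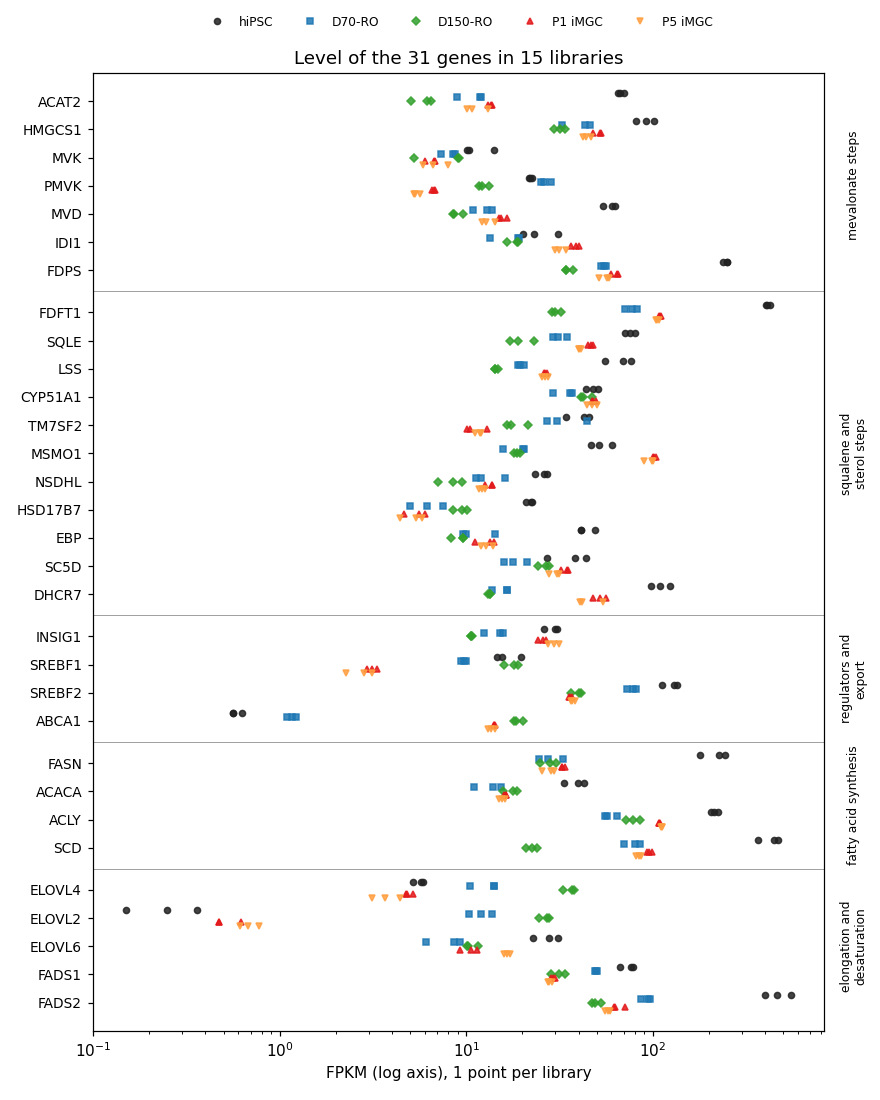
Each point is the FPKM of 1 gene in 1 library on a log axis, with the 31 genes in rows ordered by role and the 5 groups in colours. In 25 rows all hiPSC points lie to the right of all D150-RO points, and in the rows of ABCA1, ELOVL4 and ELOVL2 they lie to the left.

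Because many of these genes moved together, the bases before their start sites were searched for 4 motifs on both strands: TCACNCCAC, a form of the sterol regulatory element, CCAAT, bound by NF-Y, GGGCGG, bound by Sp1, and CACGTG, an E-box. RefSeq promoters on GRCh38.p14 were at hand for 27 of the 31 genes, 36 promoters in all, and the 250 bases before each start were read. CCAAT stood in at least 1 promoter of 19 of the 27 genes (70.4%), against 37.0% of all 27305 genes with an entry, and GGGCGG stood in 26 (96.3%), against 46.2%. Counted by promoter, CCAAT was in 63.9% of those of the 31 genes and 32.0% of all 35116, and GGGCGG in 88.9% and 42.6%. CACGTG was found for 4 of the 27 genes, ABCA1, ELOVL4, INSIG1 and SC5D (14.8%, against 7.73% of all genes), and TCACNCCAC for SREBF2 alone (3.70%, against 1.09%). By promoter the shares were 13.9% against 6.34% and 2.78% against 0.883%. The genes and promoters set beside these were taken whether or not they were expressed here. All 31 genes, in contrast, passed the FPKM filter between hiPSCs and D70-ROs. Shares among expressed genes only were not counted, so an excess may be a trait of expressed genes at large. Among the genes that were called lower in D150-ROs and higher again in P1 iMGCs, 12 had an entry and 11 of them held CCAAT, against 8 of the other 15. For GGGCGG these counts were 11 and 15, for CACGTG 1 and 3, and for TCACNCCAC 0 and 1. This split of the genes rests on calls from these same data, and the difference between its sides was not tested. No matches of different motifs overlapped in these promoters. A match is only a stretch of letters and its absence says nothing about a factor.

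The sequences that follow are examples chosen with the matches known, with 2 genes that fell in ROs and rose in iMGCs (MSMO1 and SCD), the factor SREBF2, and 2 genes that rose in ROs (ABCA1 and ELOVL2). Motif and course did not always go together, since ELOVL4, which also rose in ROs, held CCAAT and FADS2, which fell and rose again, did not. Each runs 5′ to 3′ along the gene's strand, up to the first annotated exon or the start, and capitals mark the CCAAT boxes, which read ATTGG where the box lies on the opposite strand, and the sterol regulatory element. They are MSMO1 at chr4:165327419-165327622 on the plus strand, SCD at chr10:100346983-100347123 on the plus strand, SREBF2 at chr22:41832855-41833078 on the plus strand, ABCA1 at chr9:104928238-104928405 on the minus strand and ELOVL2 at chr6:11044315-11044555 on the minus strand.
MSMO1: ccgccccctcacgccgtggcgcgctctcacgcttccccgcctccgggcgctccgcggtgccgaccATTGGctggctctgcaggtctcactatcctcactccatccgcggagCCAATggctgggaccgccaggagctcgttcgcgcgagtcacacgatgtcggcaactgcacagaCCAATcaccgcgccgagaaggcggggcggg
SCD: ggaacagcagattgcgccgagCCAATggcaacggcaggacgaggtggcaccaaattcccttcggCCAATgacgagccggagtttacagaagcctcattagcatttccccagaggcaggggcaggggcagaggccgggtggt
SREBF2: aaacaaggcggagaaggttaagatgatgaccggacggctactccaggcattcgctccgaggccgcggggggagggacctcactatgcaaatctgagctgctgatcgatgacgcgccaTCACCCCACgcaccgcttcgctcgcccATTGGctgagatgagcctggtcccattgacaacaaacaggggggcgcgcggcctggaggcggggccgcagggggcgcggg
ABCA1: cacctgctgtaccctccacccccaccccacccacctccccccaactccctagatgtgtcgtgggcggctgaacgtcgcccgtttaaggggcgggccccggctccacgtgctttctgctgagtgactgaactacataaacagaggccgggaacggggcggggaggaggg
ELOVL2: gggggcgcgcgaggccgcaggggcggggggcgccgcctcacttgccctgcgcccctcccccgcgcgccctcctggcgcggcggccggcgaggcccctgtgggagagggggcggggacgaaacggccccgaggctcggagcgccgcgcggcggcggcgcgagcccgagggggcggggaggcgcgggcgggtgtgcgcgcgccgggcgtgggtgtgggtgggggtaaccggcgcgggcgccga
The MSMO1 stretch holds 3 CCAAT boxes, the SCD stretch 2 and the SREBF2 stretch 1 beside its single sterol regulatory element. The ABCA1 and ELOVL2 stretches hold none, and in ELOVL2 the only matches were 4 of GGGCGG.

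Of the 7 enzymes of the mevalonate steps, 4 were called lower in D70-ROs than in hiPSCs, 2 lower between the RO stages, 6 lower in D150-ROs than in hiPSCs and 5 higher in P1 iMGCs than in D150-ROs. Of all genes tested, 21.1%, 16.7%, 29.0% and 20.0% were called in those directions. ACAT2, which condenses the first acetyl-CoA units, had 67.0, 64.9 and 69.9 FPKM in the hiPSC libraries, 12.0, 8.88 and 11.8 FPKM at D70 and 5.06, 6.13 and 6.51 at D150, and then 13.7, 13.7 and 13.0 in P1 iMGCs. These 4 groups did not overlap, and ACAT2 fell at both RO steps, by 2.76 ± 0.13 (SE) and by 1.11 ± 0.14 on the log2 scale, before it rose by 1.83 ± 0.09 in P1 iMGCs (adjusted p of 9.57e-09, 0.000106 and 1.03e-11). An antisense transcript covers 33.9% of the exonic bases of ACAT2 in GENCODE 29, and whether reads were counted by strand is not stated, so part of its counts is uncertain. The same limit holds for FDPS, HMGCS1 and IDI1, where opposite-strand transcripts cover 18.6%, 15.0% and 14.8% of the exonic bases.

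FDPS, which makes farnesyl pyrophosphate, was the most abundant of the 7. It had 250.9, 239.4 and 249.0 FPKM in hiPSCs, 52.9, 56.3 and 54.8 at D70, 34.5, 34.1 and 37.4 at D150, and 59.9, 65.4 and 64.0 in P1 iMGCs. FDPS was 9.04-fold lower in D150-ROs than in hiPSCs (adjusted p = 1.41e-11) and 2.77-fold higher in P1 iMGCs than in D150-ROs (adjusted p = 4.06e-12). GENCODE 29 lists 8 pseudogenes named after FDPS, which may share reads with it. MVD, the decarboxylase that yields isopentenyl pyrophosphate, took the same course, from 59.3 ± 4.42 FPKM in hiPSCs (mean ± SD, n = 3 here and below) to 8.87 ± 0.61 in D150-ROs and 15.6 ± 0.807 in P1 iMGCs.

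HMGCS1, which makes HMG-CoA, went from 91.4 ± 10.3 FPKM in hiPSCs to 40.8 ± 7.11 in D70-ROs, 31.8 ± 2.23 in D150-ROs and 50.9 ± 2.70 in P1 iMGCs. It was called lower at the first step and higher in P1 iMGCs, and fell by 0.58 ± 0.12 on the log2 scale at the second RO step, short of 2-fold. IDI1, the isomerase of the isoprenoid units, changed little in the ROs and most in the iMGCs. Its libraries had 23.0, 20.04 and 31.1 FPKM in hiPSCs, 16.6, 18.8 and 19.0 at D150 and 40.1, 36.2 and 38.6 in P1 iMGCs. The P1 iMGC libraries lay above all hiPSC and RO libraries, with a log2 fold change of 1.70 ± 0.06 over D150-ROs (adjusted p = 3.46e-13).

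The 2 kinases of mevalonate behaved differently from the rest. PMVK had 22.4, 21.9 and 21.7 FPKM in hiPSCs, 25.3, 28.6 and 26.2 at D70, 13.3, 12.1 and 11.8 at D150 and 6.77, 6.71 and 6.59 in P1 iMGCs. It was called lower only at the second RO step of the successive comparisons (−1.33 ± 0.12, adjusted p = 1.13e-05), with 0.14 ± 0.13 at the first step and −0.24 ± 0.11 (adjusted p = 0.051) from D150-ROs to P1 iMGCs. MVK was called lower only over the whole path from hiPSCs to D150-ROs (−1.29 ± 0.17, adjusted p = 1.51e-05). Its difference between P1 iMGCs and D150-ROs was 0.70 ± 0.14 by counts, but −0.20 with limma on FPKM.

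Of the 11 enzymes of the squalene and sterol steps, most fell in the ROs and rose in the iMGCs. From hiPSCs to D70-ROs 9 were called lower, and all 11 had negative log2 fold changes, between −2.86 and −0.49. From D150-ROs to P1 iMGCs 8 were called higher. The shares of all genes tested called in those directions were 21.1% and 20.0%. FDFT1, which makes squalene, had 409, 406 and 425 FPKM in hiPSCs, 82.1, 70.8 and 77.0 at D70, 28.9, 30.0 and 32.1 at D150, 107.8, 109.8 and 111.0 in P1 iMGCs and 103.9, 107.7 and 105.3 in P5 iMGCs. The 5 groups did not overlap. FDFT1 fell by 2.32 ± 0.10 and then by 1.56 ± 0.08 on the log2 scale in the ROs and rose by 2.47 ± 0.05 in P1 iMGCs (adjusted p of 7.81e-09, 7.1e-07 and 1.29e-16).

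MSMO1, the C-4 methyl oxidase of the sterol ring, had the largest rise in P1 iMGCs of the 31 genes. It had 51.8, 46.8 and 60.5 FPKM in hiPSCs, 20.5, 15.8 and 20.04 at D70, 18.7, 18.1 and 19.4 at D150, 102.0, 99.9 and 104.2 in P1 iMGCs and 100.7, 90.2 and 98.8 in P5 iMGCs. All 6 iMGC libraries were above every hiPSC and RO library. The rise from D150-ROs was 9.32-fold, 3.22 ± 0.05 on the log2 scale (adjusted p = 8.94e-18). DHCR7, which reduces 7-dehydrocholesterol to cholesterol, had 109.4, 124.0 and 97.5 FPKM in hiPSCs, 13.5, 13.5 and 13.1 at D150 and 47.6, 52.3 and 56.0 in P1 iMGCs. It was 11.6-fold lower in D150-ROs than in hiPSCs and 5.83-fold higher in P1 iMGCs than in D150-ROs (adjusted p of 8.88e-11 and 9.29e-16).

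SQLE, the epoxidase that acts on squalene, went from 75.7 ± 4.31 FPKM in hiPSCs to 31.5 ± 2.90 in D70-ROs and 19.7 ± 2.95 in D150-ROs, and to 46.5 ± 1.36 in P1 iMGCs. At its second RO step it fell by 1.00 ± 0.11, narrowly not called, and it was called without D70-RO replicate 1 (−1.02), D70-RO replicate 2 (−1.05) or D150-RO replicate 3 (−1.09). LSS, which closes the sterol ring, went from 66.8 ± 10.6 FPKM in hiPSCs to 14.4 ± 0.359 in D150-ROs and 26.6 ± 0.475 in P1 iMGCs, and both the fall and the rise were called. NSDHL, EBP and SC5D, a dehydrogenase, an isomerase and a desaturase of the ring, were called lower in D70-ROs than in hiPSCs and higher in P1 iMGCs than in D150-ROs, with log2 fold changes between −1.98 and −1.09 and between 1.01 and 1.35. Several of these stood close to 2-fold. In D70-ROs the call was lost for NSDHL without D70-RO replicate 1 (−0.97) and for SC5D without hiPSC replicate 3 (−0.96). In P1 iMGCs it was lost for EBP without D150-RO replicate 1 (0.93) or P1 iMGC replicate 3 (0.90), and for SC5D without D150-RO replicate 1 (0.95) or P1 iMGC replicates 1 or 3 (0.99 each).

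TM7SF2, HSD17B7 and CYP51A1 were not called higher in P1 iMGCs. TM7SF2, a sterol C-14 reductase, had 42.8, 45.6 and 34.4 FPKM in hiPSCs, 30.6, 44.6 and 26.9 at D70, 16.5, 21.5 and 17.3 at D150 and 10.1, 10.5 and 12.9 in P1 iMGCs. Its fall between the RO stages was −1.05 ± 0.19 (adjusted p = 0.000913) and became −0.79 without D70-RO replicate 2, which was the highest of its group. HSD17B7, a sterol ketoreductase with 2 pseudogenes in GENCODE 29, fell 4.16-fold at the first step, from 21.9 ± 0.834 to 6.22 ± 1.26 FPKM. Its later differences were 0.46 ± 0.21 between the RO stages and −0.20 ± 0.13 between D150-ROs and P1 iMGCs, and neither passed the test. CYP51A1, a C-14 demethylase, stayed between 29.2 and 50.6 FPKM in all 15 libraries and was not called in any comparison. Another gene on the same strand covers 79.4% of its exonic bases, so its level is uncertain. GENCODE 29 also lists 3 pseudogenes named after CYP51A1.

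**Figure D3:**
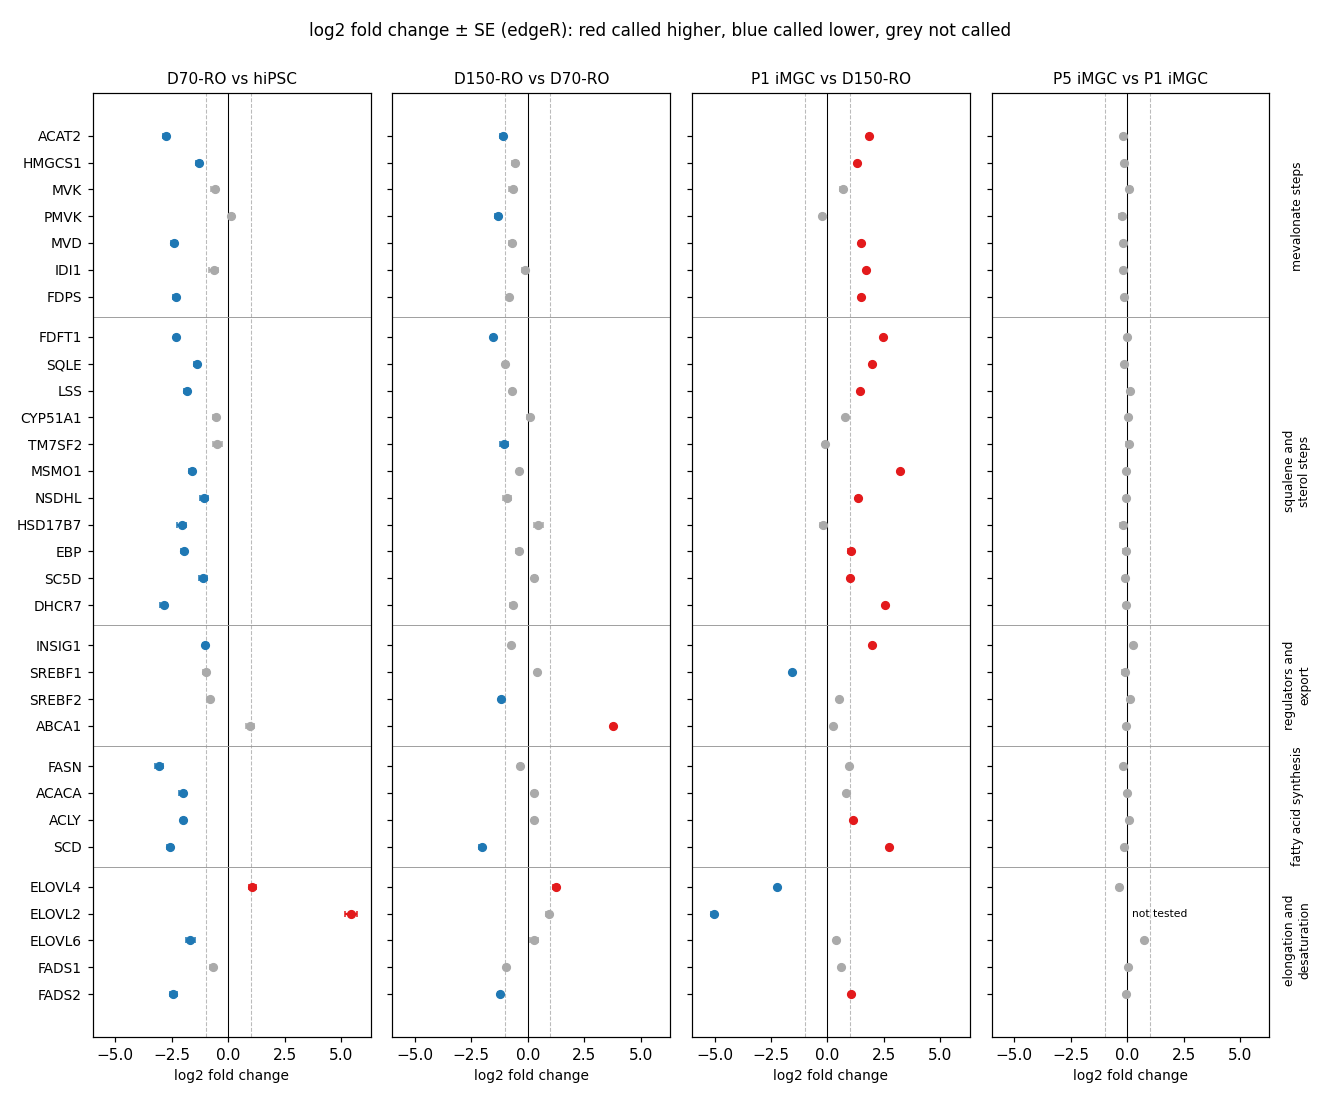
Points are log2 fold changes with their standard errors from edgeR for the 31 genes in rows, in 4 successive comparisons, coloured red where called higher, blue where called lower and grey where not called, and the dashed lines mark 2-fold. The first panel has 20 blue points, the third has 17 red points, and the last has no coloured point.

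In fatty acid synthesis, all 4 genes were called lower in D70-ROs than in hiPSCs (21.1% of all genes tested), and FASN fell the most (−3.07 ± 0.16). SCD, the desaturase that makes oleate, had the largest fall of the 31 genes over the whole path. It had 444, 468 and 368 FPKM in hiPSCs, 80.0, 85.6 and 70.5 at D70, 21.0, 22.4 and 23.9 at D150, 93.6, 95.7 and 99.3 in P1 iMGCs and 81.7, 84.1 and 86.7 in P5 iMGCs. The hiPSC libraries were the highest and the D150-RO libraries the lowest, without overlap. SCD fell 5.97-fold and then 4.10-fold in the ROs and rose 6.70-fold in P1 iMGCs (adjusted p of 3.66e-08, 7.79e-07 and 2.41e-16).

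FASN, the fatty acid synthase, had 227, 245 and 179 FPKM in hiPSCs, 27.4, 24.4 and 32.9 at D70, 24.8, 28.0 and 30.3 at D150 and 33.7, 32.6 and 32.5 in P1 iMGCs. Most of its fall was at the first step, 8.43-fold (adjusted p = 2.69e-08), and the 3 later groups lay close together. From D150-ROs to P1 iMGCs it rose by 0.95 ± 0.05 on the log2 scale, short of 2-fold. ACACA, the acetyl-CoA carboxylase, had a like course, from 38.7 ± 4.74 FPKM in hiPSCs to 13.4 ± 2.23 in D70-ROs and 16.2 ± 0.263 in P1 iMGCs, and its rise of 0.81 ± 0.05 in P1 iMGCs became −0.09 with limma on FPKM. ACLY, which splits citrate into acetyl-CoA, fell from 205.6 to 223.5 FPKM in hiPSCs to 55.6 to 64.0 FPKM in D70-ROs and stood at 71.6 to 84.98 FPKM in D150-ROs and 108.2 to 109.0 FPKM in P1 iMGCs, 2.18-fold above D150-ROs (adjusted p = 1.01e-11).

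The 5 elongases and desaturases split into opposite courses. FADS2, the delta-6 desaturase, had the highest mean level of the 31 genes in hiPSCs, with 466, 552 and 399 FPKM, although FDFT1 was above it in hiPSC replicate 3. It had 86.1, 96.3 and 94.2 FPKM in D70-ROs, 49.2, 47.3 and 52.9 at D150 and 62.7, 62.2 and 70.8 in P1 iMGCs. Both falls in the ROs were called (−2.43 ± 0.15 and −1.23 ± 0.09), and its rise in P1 iMGCs was 1.06 ± 0.05 and lost its call without D150-RO replicate 2 (1.00). FADS1, the delta-5 desaturase, went from 74.0 ± 6.35 FPKM in hiPSCs to 31.2 ± 2.61 in D150-ROs and 29.2 ± 0.815 in P1 iMGCs. It was called lower over the whole path to D150-ROs (−1.67 ± 0.10) and its second RO step of −0.99 ± 0.08 was called without D70-RO replicate 1 (−1.01), D70-RO replicate 3 (−1.01) or D150-RO replicate 3 (−1.04). FADS1 and FADS2 lie on opposite strands of chromosome 11 and share 4.8% and 4.4% of their exonic bases. GENCODE 29 lists 1 pseudogene named after FADS2, which may share reads with it. ELOVL6, which lengthens saturated fatty acids, fell 3.22-fold at the first step and stayed low, at 10.6 ± 0.816 FPKM in D150-ROs and 10.4 ± 1.08 in P1 iMGCs.

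ELOVL2 and ELOVL4, which make the longest polyunsaturated fatty acids, rose instead. ELOVL2 had 0.15, 0.25 and 0.36 FPKM in hiPSCs (60 counts over the group), 12.0, 10.4 and 13.7 at D70, 24.5, 27.9 and 27.1 at D150, 0.47, 0.62 and 0.47 in P1 iMGCs (104 counts) and 0.61, 0.77 and 0.68 in P5 iMGCs (137 counts). The RO libraries were all above 10 FPKM and the others all below 1 FPKM. ELOVL2 was 81.2-fold higher in D150-ROs than in hiPSCs and 32.6-fold lower in P1 iMGCs than in D150-ROs (adjusted p of 2.47e-11 and 6.46e-16). Its step of 0.92 ± 0.11 between the RO stages was short of 2-fold and reached 1.01 without D70-RO replicate 3. ELOVL4 had 5.88, 5.17 and 5.74 FPKM in hiPSCs, 14.1, 10.5 and 14.1 at D70, 33.1, 36.8 and 38.01 at D150, 5.16, 4.77 and 4.83 in P1 iMGCs and 4.39, 3.12 and 3.65 in P5 iMGCs. It was called higher at both RO steps (1.06 ± 0.15 and 1.25 ± 0.12) and was 4.68-fold lower in P1 iMGCs than in D150-ROs (adjusted p = 9.34e-14).

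Some markers of several retinal cell types were also highest in D150-ROs and low in P1 iMGCs. The 8 markers (CRX, RCVRN, NRL, NR2E3, SAG, GNGT1, PDE6H and ARR3) summed to 3.28 to 4.47 FPKM in hiPSCs, 125.0 to 130.9 FPKM in D70-ROs, 1034.4 to 1119 FPKM in D150-ROs and 0.20 to 0.38 FPKM in P1 iMGCs, where CRX, RCVRN, SAG, GNGT1, PDE6H and ARR3 had 0 counts. All 8 were called lower in P1 iMGCs than in D150-ROs. The Mueller glia marker RLBP1 averaged 0.0733, 1.16, 33.5 and 0 FPKM in hiPSCs, D70-ROs, D150-ROs and P1 iMGCs, and SLC1A3 averaged 6.64, 9.05, 28.0 and 0.373 FPKM. SOX9 was also highest in D150-ROs, at 42.6 FPKM. The other Mueller glia markers differed, with GLUL highest in D70-ROs, at 109.8 FPKM against 100.2 FPKM in D150-ROs. VIM and CRYAB were higher in P1 iMGCs than in D150-ROs, at 2159.7 against 1064.5 FPKM and 30.2 against 10.9 FPKM. Of 6 genes of retinal ganglion, amacrine and horizontal cells, TFAP2A and PROX1 were highest in D150-ROs, at 24.2 and 16.2 FPKM, while POU4F2, ISL1, ELAVL4 and ONECUT2 were highest in D70-ROs. The part of any of these cell types in the ELOVL2 and ELOVL4 levels was not tested.

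**Figure D4:**
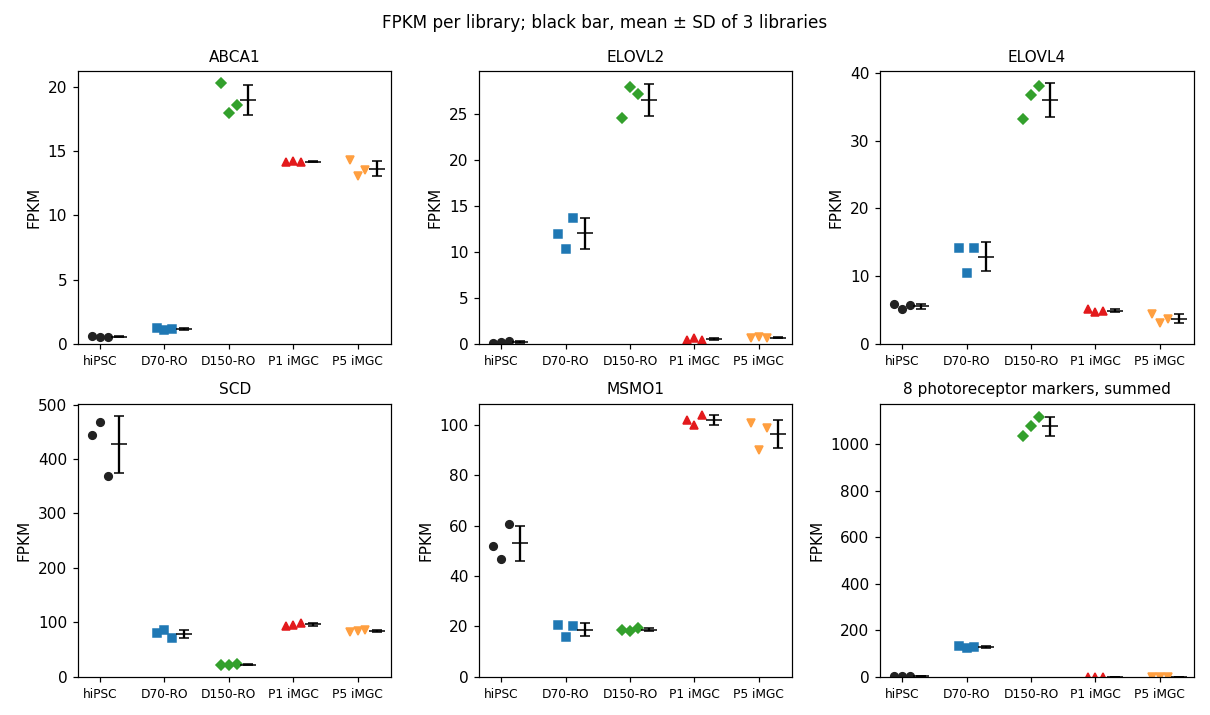
FPKM is plotted per library in the 5 groups for ABCA1, ELOVL2, ELOVL4, SCD, MSMO1 and the sum of 8 photoreceptor markers, with the mean ± SD of 3 libraries as a black bar. ELOVL2, ELOVL4 and the photoreceptor sum peak in D150-ROs and are low in iMGCs, ABCA1 stays high in iMGCs, and SCD and MSMO1 are lowest or near their lowest in D150-ROs.

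Among regulators and export, INSIG1 was called lower on the path to D150-ROs and higher in P1 iMGCs, SREBF2 was called lower on the path to D150-ROs and not called from there to P1 iMGCs, and SREBF1 was called lower in P1 iMGCs. INSIG1 had 26.1, 30.1 and 30.5 FPKM in hiPSCs, 15.1, 12.4 and 15.8 at D70, 10.6, 10.8 and 10.6 at D150, 26.7, 24.3 and 25.8 in P1 iMGCs and 31.3, 29.7 and 27.6 in P5 iMGCs. Its rise in P1 iMGCs was 3.97-fold (adjusted p = 7.4e-14). Its fall of 1.02 ± 0.12 on the log2 scale in D70-ROs lost its call without hiPSC replicate 2 or 3 (each just short of 2-fold) or D70-RO replicate 2 (−0.97), and its fall of 1.76 ± 0.09 over the whole path to D150-ROs kept its call when any single library was left out.

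SREBF2, the factor that drives the sterol genes, had 130.5, 134.8 and 111.5 FPKM in hiPSCs, 72.8, 80.8 and 78.8 at D70, 40.1, 36.6 and 41.5 at D150 and 35.4, 35.9 and 36.9 in P1 iMGCs. It fell by 0.83 ± 0.12 on the log2 scale at the first RO step, short of 2-fold, and was called lower at the second (−1.20 ± 0.09, adjusted p = 5.21e-06) and over the whole path (−2.04 ± 0.10, adjusted p = 1.26e-09). From D150-ROs to P1 iMGCs its log2 fold change was 0.52 ± 0.05, short of 2-fold, and −0.12 with limma on FPKM. SREBF1, whose products act more on fatty acid genes, had 15.5, 19.6 and 14.6 FPKM in hiPSCs, 9.35, 9.95 and 9.71 at D70, 18.0, 16.0 and 18.9 at D150, 2.94, 3.14 and 3.33 in P1 iMGCs and 2.28, 2.84 and 3.11 in P5 iMGCs. The 6 iMGC libraries were the lowest. SREBF1 was 3.02-fold lower in P1 iMGCs than in D150-ROs (adjusted p = 9.61e-12), while SCD, INSIG1 and most sterol enzymes were higher there. Its step of −0.99 ± 0.15 from hiPSCs to D70-ROs was called without hiPSC replicate 1 (−1.02), hiPSC replicate 3 (−1.08) or D70-RO replicate 2 (−1.05).

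ABCA1, the transporter that loads cholesterol onto lipoproteins, took the opposite course in the ROs. It had 0.63, 0.56 and 0.56 FPKM in hiPSCs, 1.23, 1.09 and 1.17 at D70, 20.2, 18.0 and 18.6 at D150, 14.2, 14.2 and 14.1 in P1 iMGCs and 14.3, 13.1 and 13.5 in P5 iMGCs. The D150-RO and iMGC libraries were all above 13 FPKM, and the earlier ones all below 1.3 FPKM. Levels of ABCA1 in D150-ROs were 13.6-fold above D70-ROs and 26.2-fold above hiPSCs (adjusted p of 4.16e-08 and 9.26e-12). Its first step of 0.95 ± 0.18 was called without hiPSC replicate 1 (1.08). Between D150-ROs and P1 iMGCs its log2 fold change was 0.25 ± 0.05 by TMM-scaled counts and −0.39 with limma on FPKM, so its direction there depends on the scale.

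A comparison of P1 iMGCs with hiPSCs was added after the levels had been seen, to place the iMGC levels. Of the 30 genes tested, 16 were called lower and 2 higher in P1 iMGCs, where 29.7% and 26.1% of the 12666 genes tested were called in those directions. By adjusted p alone 28 differed (86.4% of all genes tested), and in FPKM 27 did not overlap, 24 of them lower (86.0%). That last share pools both directions, and 6661 of the 12666 genes tested were lower without overlap. The 2 called higher were ABCA1 (4.96 ± 0.11) and MSMO1 (1.24 ± 0.09), and limma on FPKM called ABCA1 alone. The genes furthest below hiPSCs were FADS2 (−2.60 ± 0.12), FASN (−2.46 ± 0.11), SREBF1 (−2.17 ± 0.14) and ACAT2 (−2.04 ± 0.08), all with adjusted p of 2.85e-08 or less. The calls for LSS and FADS1 were lost without hiPSC replicate 2 (−0.91 and −0.98), and that for ELOVL6 without hiPSC replicate 1 (−0.99), hiPSC replicate 3 (−0.90) or P1 iMGC replicate 2 (−0.97). DHCR7 (−0.99 ± 0.10) was called without hiPSC replicate 3 (−1.09) or P1 iMGC replicate 3 (−1.01), and without hiPSC replicate 3 also ACACA (−1.04) and, as higher, IDI1 (1.12). Markers of dividing cells differed as well, with 431.8 to 505.0 FPKM over 6 genes in hiPSCs, 130.4 to 170.6 in D70-ROs, 44.3 to 58.6 in D150-ROs and 41.3 to 48.5 in P1 iMGCs. By TMM-scaled counts, 5 of these 6 were higher in P1 iMGCs than in D150-ROs, with a median log2 fold change of 0.29. Of the 6, 1 was called higher (20.0% of all genes tested). The part of dividing cells in the levels of the 31 genes was not tested.

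From P1 to P5 iMGCs the changes were small. By edgeR 11 of the 30 genes tested passed the adjusted p alone and 14 had an unadjusted p under 0.05, DESeq2 also called 0 genes, with 12 at an unadjusted p under 0.05, and limma called 0, with 14. Of all 11366 genes tested, 3485 passed the adjusted p by edgeR (30.7%) and 4477 had an unadjusted p under 0.05. With DESeq2 and limma, 3819 and 4079 of them had an unadjusted p under 0.05. The largest difference was a rise of 0.76 ± 0.06 for ELOVL6, from 11.5, 9.29 and 10.6 FPKM in P1 to 17.1, 15.9 and 16.6 in P5 iMGCs (adjusted p = 1.47e-09). INSIG1, SREBF2 and ACLY rose by 0.10 to 0.24, and ACAT2, HMGCS1, IDI1, SQLE, FASN, SCD and ELOVL4 fell by 0.12 to 0.34 on the log2 scale. By a normal approximation from the standard errors, the 95% intervals of all 30 log2 fold changes lay within −0.56 and 0.88. None of them included a change of 2-fold, though with 3 libraries per group such intervals are somewhat too narrow. ELOVL2 was below the filter of 1 FPKM in both groups and was not tested.

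Of 22 other genes that handle sterols, 21 were tested between hiPSCs and D150-ROs, of which 5 were called higher and 7 lower, beside 29.8% and 29.0% of all genes tested. ABCG1, a second cholesterol exporter, rose with ABCA1 in the ROs, from 0.947 ± 0.136 FPKM in hiPSCs to 17.3 ± 0.517 in D150-ROs (3.80 ± 0.14), but it had 0 counts in the P1 iMGCs against 2469 in the D150-ROs, at least 534-fold lower with 3 counts over the group as the upper limit of 0. SOAT1, which esterifies cholesterol, and CYP46A1, which makes 24-hydroxycholesterol, also rose in D150-ROs over hiPSCs (2.39 and 3.16 on the log2 scale), while TMEM97, which binds NPC1, and STARD4, a cholesterol carrier, fell (−2.51 and −1.75). Between D150-ROs and P1 iMGCs, 5 of the 21 genes tested were called higher and 5 lower, beside 20.0% and 24.1% of all genes. STARD4 rose by 3.33, the lysosomal lipase LIPA by 3.29 and the lysosomal cholesterol carrier NPC2 by 2.19 on the log2 scale, and CYP46A1 fell by 4.18.

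Of 26 other genes of fatty acid supply and use, 23 were tested between hiPSCs and D150-ROs, with 6 called higher and 9 lower (29.8% and 29.0% of all genes tested). Between D150-ROs and P1 iMGCs 21 were tested, with 9 called higher and 2 lower (20.0% and 24.1% of all genes tested). The second stearoyl-CoA desaturase, SCD5, ran opposite to SCD in the ROs. It had 1.23, 1.16 and 1.56 FPKM in hiPSCs, 38.3, 47.7 and 37.9 at D70 and 54.2, 56.4 and 48.1 at D150, a log2 fold change of 4.96 over the whole path, and in D150-ROs its level in FPKM was above that of SCD. The citrate carrier SLC25A1, which feeds ACLY, fell by 4.18 on the log2 scale from hiPSCs to D150-ROs, and the elongase ELOVL5 by 2.33. The acyl-CoA synthetase ACSL6 rose by 6.60 on the log2 scale from hiPSCs to D150-ROs. From there to P1 iMGCs it fell by 12.26, the largest fall of this list. In P1 iMGCs the synthetase ACSL4 and the malic enzyme ME1 rose by 3.29 and 2.97 over D150-ROs.

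Of 8 genes of fatty acid oxidation, 2 were called higher and 2 lower in D150-ROs than in hiPSCs, and 2 higher and 1 lower in P1 iMGCs than in D150-ROs, where the shares of all genes tested were 29.8% and 29.0%, and 20.0% and 24.1%. CPT1A, the carnitine transferase that admits fatty acids to mitochondria, rose by 3.19 and then fell by 3.14 on the log2 scale, opposite in sign to most synthesis genes at both steps. HADHA, a subunit of the trifunctional protein, fell by 1.52 from hiPSCs to D150-ROs and rose by 1.13 from there to P1 iMGCs. These were the directions of most synthesis genes at both steps. HADHB rose by 1.27 from D150-ROs to P1 iMGCs. Between P1 and P5 iMGCs the 3 lists held a single call, the sterol 27-hydroxylase CYP27A1, which rose by 1.92 on the log2 scale by edgeR and by 0.93, short of 2-fold, with limma on log2(FPKM + 1).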

How the data were processed

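Libraries were made from poly(A) RNA. The authors mapped the reads with HISAT2 and assembled them with StringTie (versions and genome build not given in the sources used here). The deposited expected counts, estimated with RSEM, are not normalized, and 8.215% to 10.054% of the values per library were not whole. The deposited FPKM values were scaled by the authors to transcript length and mapped reads. In a further table, 6 columns matched no single sample and were not used. Groups came from the labels.

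Expected counts were rounded and compared between 2 groups at a time with edgeR 4.0.16 (R 4.3.3; TMM scaling, quasi-likelihood test with Benjamini-Hochberg adjustment), over genes with at least 1 FPKM in at least 3 of the libraries compared. A call needed an adjusted p under 0.05 and a 2-fold change. Tested on simulated data, edgeR recovered 99% to 100% of 200 genes changed 4-fold among the genes of each comparison, with 0 to 6 false calls. As many genes were raised as lowered and the rest were left equal. This simulation therefore does not cover calls near 2-fold, or comparisons where many more genes differ or a few take a large share of the counts. Alternatives were DESeq2 1.42.0, limma 3.58.1 on log2(FPKM + 1) and log2(FPKM + 0.1), other scalings and filters, removal of a length trend, a replicate block and leaving out each library. All 31 genes were described, and of the other lists at most the 3 largest rises and falls. The genes and lists were chosen with earlier results of these data known. Gene models came from GENCODE 29 and promoters from RefSeq. A count of 0 was read as at most 3 counts over the group, which covers counting error only.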

Additional observations from a re-analysis of the deposited data

How the results depend on the processing

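Of 2765 recomputed values for 159 single-gene results under the alternatives, 2549 kept their direction and side of the threshold, 90 lost and 105 gained the call, and 21 turned direction. These were the results with an adjusted p under 0.05 by edgeR and a few others described above. Most results without such a p were left out, so the number that turned direction does not cover them. The cause was not tested where a value moved. Library totals were at least 11349600 counts, with 3 libraries per group.

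Limma on FPKM, with either pseudocount, gave 3 genes lower (and 3 higher) between the RO stages, 8 higher (and 3 lower) in P1 iMGCs than in D150-ROs and 1 higher (and 18 lower) in P1 iMGCs than in hiPSCs. With the adjusted p alone, 6 genes were higher and 20 lower between the RO stages, 4 higher and 7 lower in P5 than in P1 iMGCs, and 5 higher in P1 iMGCs than in hiPSCs. A test against a 2-fold change left 1 gene higher in D70-ROs than in hiPSCs. With the length trend removed, 3 genes were higher and 11 lower in P1 iMGCs than in hiPSCs.

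On FPKM with pseudocounts of 1 and 0.1, the log2 fold change between P1 iMGCs and D150-ROs became −0.20 and −0.22 for MVK, −0.12 and −0.13 for SREBF2, −0.39 and −0.41 for ABCA1, −0.09 and −0.10 for ACACA, −0.03 with both for ELOVL6 and −0.09 with both for FADS1. It became 0.01 with both for MSMO1 between the RO stages, 0.09 and 0.10 for SREBF1 between D150-ROs and hiPSCs, and −0.17 with both for INSIG1 between P1 iMGCs and hiPSCs. With the length trend removed it became 0.06 for EBP and −0.10 for ACLY between the RO stages and 0.04 for MVK between P1 iMGCs and hiPSCs.

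Leaving out each library in turn gave 2 to 3 genes higher and 19 to 21 lower in D70-ROs than in hiPSCs, 2 to 3 higher and 7 to 10 lower between the RO stages, 3 higher and 24 lower in D150-ROs than in hiPSCs, 15 to 17 higher and 3 lower in P1 iMGCs than in D150-ROs, 0 in either direction from P1 to P5, and 2 to 3 higher and 14 to 17 lower in P1 iMGCs than in hiPSCs. Same-numbered libraries did not deviate together throughout (correlations of −0.074 to 0.337), so the numbers were not taken as pairs. With the replicate block the counts higher and lower were 2 and 20, 2 and 7, 3 and 24, 17 and 3, 0 and 0, and 2 and 16 in the same order.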
